A study of Mus musculus with 6 samples.

Results

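The 10 genes described here are direct targets of the transcription factor p53, namely Mdm2 (ENSMUSG00000020184), Cdkn1a (ENSMUSG00000023067), Ccng1 (ENSMUSG00000020326), Bax (ENSMUSG00000003873), Bbc3 (ENSMUSG00000002083), Trp53inp1 (ENSMUSG00000028211), Eda2r (ENSMUSG00000034457), Phlda3 (ENSMUSG00000041801), Sesn1 (ENSMUSG00000038332) and Zmat3 (ENSMUSG00000027663). They were taken by name from the 56953 genes in the count tables, and all 10 were matched and tested among the 15591 genes that passed a filter on low counts. These 10 genes and the other lists below were chosen with earlier results of these data known. Counts set beside the shares of all tested genes are therefore a description and no independent test. The libraries came from NK cells, cytotoxic lymphocytes of the innate immune system, isolated from the spleen of wild-type C57BL/6 mice. The cells had been kept for 7 days in medium with recombinant human interleukin-2 at 1700 U/ml and 5% CO2, either at 20% oxygen (normoxia, 3 libraries) or at 1% oxygen (hypoxia, 3 libraries). The labels call the libraries of a group biological replicates and do not say if each stands for its own mouse, pool or culture, so p-values reflect only how much these libraries differ, which may be technical. Genotype, medium and length of culture were the same in both groups, mouse age is not given here, and each group is a bulk culture in which fewer cells of a type and less RNA per cell cannot be told apart.

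p53, encoded by Trp53 in the mouse, is held at a low level by the ubiquitin ligase MDM2 and accumulates when DNA damage, loss of ribosome synthesis or other stress interrupts that control. It then binds response elements near its target genes and raises their transcription. Its targets include its own inhibitor Mdm2, genes that stop the cell cycle, genes that permeabilise mitochondria, and genes that adjust growth signalling and RNA. In lymphocytes the pathway is best known for removing cells with damaged genomes. p53 protein, its modifications and its binding to DNA were not measured here.

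Culture for 7 days at 1% oxygen left 7 of the 10 target mRNAs higher and 0 lower than at 20% oxygen. The 7 were Eda2r, Phlda3, Trp53inp1, Zmat3, Ccng1, Bax and Mdm2, from 1.26-fold for Mdm2 to 3.83-fold for Phlda3, with Eda2r, a gene at a few counts in normoxia, further above. Bbc3 and Sesn1 did not pass the test, nor did Cdkn1a, which passed when libraries with the same replicate number were compared with each other or when replicate 1 of normoxia was left out. Of all tested genes, 11.2% were called higher and 9.72% lower (edgeR quasi-likelihood test, Benjamini-Hochberg adjusted p under 0.05 over the 15591 genes). The median log2 fold change (hypoxia over normoxia throughout) was 0.48 over the 10 members and -0.0052 over all tested genes. Eda2r passed the filter through its hypoxia libraries alone and so had to differ. In 7 of the 10 all hypoxia libraries lay above all normoxia libraries and in 0 below, compared with 19.6% and 18.7% of all tested genes. Of the 9 genes other than Eda2r, 6 were called higher and 0 lower, with a median of 0.40. In 6 of these 9 all hypoxia libraries lay above all normoxia libraries.

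The libraries totalled 55104810 to 55794698 estimated counts, so that 1 count equalled about 0.018 CPM, the read count normalised to library total. Levels are CPM scaled with TMM, and group values are mean ± SD over n = 3 libraries. The replicate 1 libraries of both groups stood apart from the other 4 on the second principal component (23.2 and 35.0 against -20.2 to -11.4). Libraries with the same replicate number also deviated together from their group means, so a fit with the replicate number as a block (the replicate block) is given where it changes a call. With that block 19.2% of tested genes were called higher and 20% lower, and it called 8 of the 10 members higher and 0 lower, the added member being Cdkn1a. Without both replicate 1 libraries the same member counts, 8 and 0, were found, beside 1811 higher and 1481 lower of the 15814 genes tested. Scaling by library size alone made 70.5% of all calls higher in place of 53.5% and moved the median of all genes to 0.08. Under it 7 members were higher and 0 lower, beside 2384 higher and 998 lower of the 15591 genes tested.

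**Figure D1:**
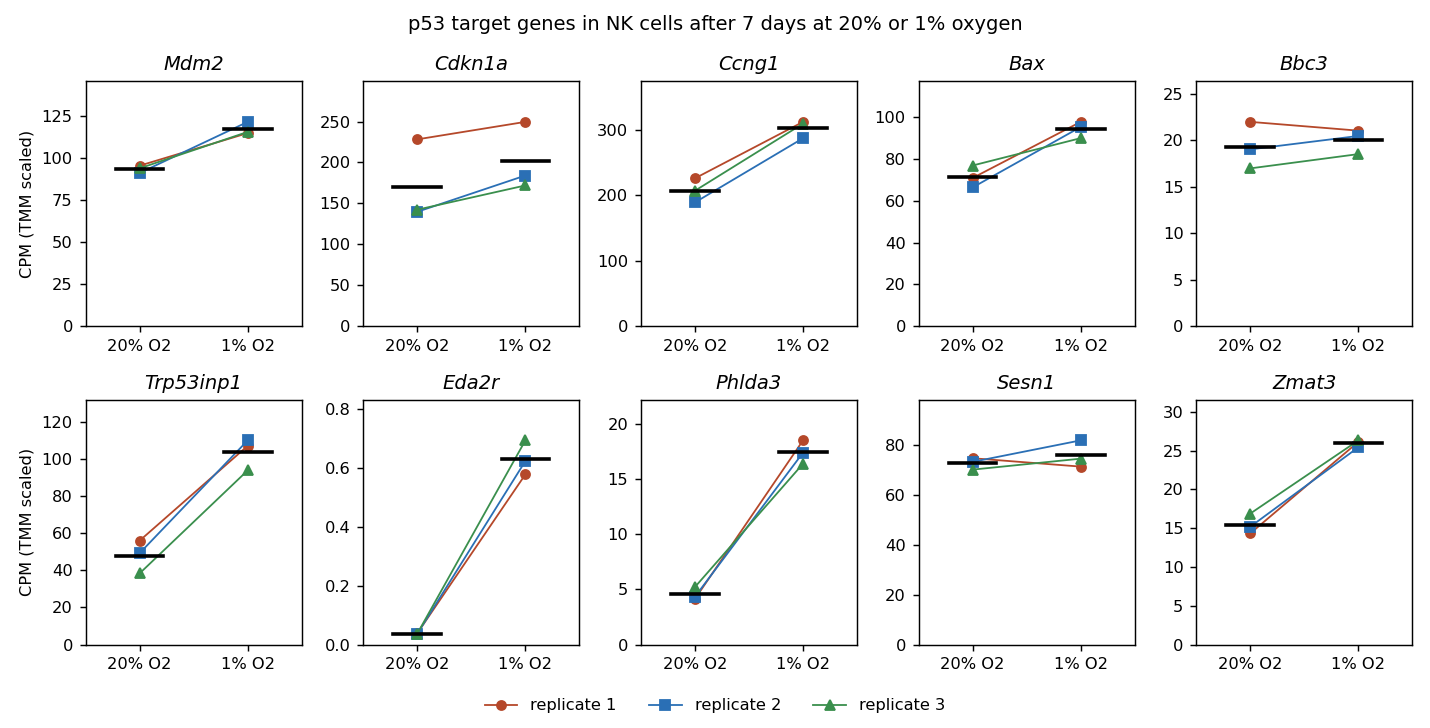
CPM (TMM scaled, linear axis from 0) of the 10 p53 target genes in the 3 libraries at 20% oxygen and the 3 at 1% oxygen. Lines join libraries with the same replicate number and black bars are group means; in 7 panels every library at 1% oxygen lies above every library at 20%, and in Cdkn1a replicate 1 lies above the others at both oxygen levels.

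Promoter sequence is shown for the members in which the p53 half-site consensus was found, and for Phlda3, a gene that rose and in which it was not found. The half-site is the 10-base palindromic pattern that p53 binds as a pair of copies separated by a short spacer, and because it is palindromic a match on one strand is a match on the other. Of the 10 members, 8 had an entry in a RefSeq table of promoter windows (build GRCm38.p6, an earlier build than that of the count tables), which reach from 250 bases before to 50 bases after each transcription start. Windows of 5 of these 8 genes held at least 1 exact half-site, compared with 9.55% of the 27025 genes in the table. The windows below are the 250 bases before the start, 5′ to 3′ on the strand of the gene, with exact half-sites in capitals.
Cdkn1a (chr17:29090729-29090978, plus strand): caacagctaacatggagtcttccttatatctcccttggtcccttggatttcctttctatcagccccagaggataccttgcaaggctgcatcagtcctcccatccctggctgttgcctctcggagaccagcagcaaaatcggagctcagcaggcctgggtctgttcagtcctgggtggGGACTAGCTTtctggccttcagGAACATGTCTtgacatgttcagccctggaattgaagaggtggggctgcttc
Ccng1 (chr11:40755287-40755536, minus strand): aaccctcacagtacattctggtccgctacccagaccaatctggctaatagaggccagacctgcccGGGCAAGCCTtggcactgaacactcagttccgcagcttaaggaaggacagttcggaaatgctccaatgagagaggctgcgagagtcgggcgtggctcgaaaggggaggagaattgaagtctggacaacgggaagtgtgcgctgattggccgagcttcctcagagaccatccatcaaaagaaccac
Mdm2 (chr10:117710759-117711008, minus strand): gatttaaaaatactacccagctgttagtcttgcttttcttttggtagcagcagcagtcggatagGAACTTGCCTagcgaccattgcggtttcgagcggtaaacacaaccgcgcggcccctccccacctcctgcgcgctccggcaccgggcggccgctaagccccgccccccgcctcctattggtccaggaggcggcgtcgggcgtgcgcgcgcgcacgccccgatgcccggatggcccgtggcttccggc
Bax (chr7:45466899-45467148, minus strand): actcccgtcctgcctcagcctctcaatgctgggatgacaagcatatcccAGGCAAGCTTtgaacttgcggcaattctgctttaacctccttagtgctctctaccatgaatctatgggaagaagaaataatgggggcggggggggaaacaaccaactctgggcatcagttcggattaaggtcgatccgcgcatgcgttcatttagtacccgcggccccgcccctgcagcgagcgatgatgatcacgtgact
Sesn1 (chr10:41887189-41887438, plus strand): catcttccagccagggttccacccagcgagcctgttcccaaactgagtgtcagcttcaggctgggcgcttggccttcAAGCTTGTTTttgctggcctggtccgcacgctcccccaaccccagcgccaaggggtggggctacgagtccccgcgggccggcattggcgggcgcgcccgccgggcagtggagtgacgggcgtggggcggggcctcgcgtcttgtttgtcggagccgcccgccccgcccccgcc
Phlda3 (chr1:135765835-135766084, plus strand): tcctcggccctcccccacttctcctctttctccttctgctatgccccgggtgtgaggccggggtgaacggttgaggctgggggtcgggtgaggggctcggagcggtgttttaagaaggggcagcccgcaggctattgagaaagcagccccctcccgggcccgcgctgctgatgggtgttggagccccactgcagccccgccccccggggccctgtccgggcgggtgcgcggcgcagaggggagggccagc

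In the upstream window of Cdkn1a, which belongs to the more distal of its annotated starts, 2 exact half-sites lay 73 and 51 bases before the start, with a spacer of 12 bases. An exact pair with a spacer of up to 13 bases was present in 0.073% of all windows. The half-site at 51 bases was also directly followed, without a spacer, by a decamer with 1 mismatch. The half-site of Ccng1, 185 bases before the start, directly followed a decamer with 1 mismatch, and those of Bax and Sesn1 (201 and 173 bases before the start) had a partner that brought the pair to 2 mismatches. Pairs with at most 2 mismatches were found in windows of 4 of the 8 genes and in 4.71% of all genes. Mdm2 had 1 half-site, 186 bases before the start, without such a partner. The plain core CATG was too common to set genes apart, at 64.8% of all genes and 4 of the 8 members. Eda2r and Bbc3 had windows without an exact half-site. The bases just after the start in the Phlda3 and Bbc3 windows were found in no transcript of these genes in the GENCODE M21 annotation. The lack of a half-site there holds for those RefSeq starts only. Members with a half-site included 3 that rose (Ccng1, Bax and Mdm2), as well as Cdkn1a and Sesn1. A match is only a match of letters in a short window, and elements in introns or further upstream were not searched.

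Mdm2 closes the feedback loop of the pathway, since its product marks p53 for degradation. It stood at 115, 121 and 115 CPM in hypoxia replicates 1, 2 and 3 and at 95.3, 91.0 and 93.8 CPM in normoxia. The groups did not overlap, and the spread within each was small. Mdm2 rose 1.26-fold, from 93.4 ± 2.20 to 117 ± 3.67 CPM (log2 change of 0.33 ± 0.07 SE, edgeR adjusted p = 0.0070).

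Among the genes that act on the cell cycle, Cdkn1a encodes p21, an inhibitor of cyclin-dependent kinases and the best-known p53 target. Its levels were 249.6, 184 and 172 CPM in hypoxia and 228, 139.6 and 142 CPM in normoxia. Replicate 1 was the highest library in each group, and normoxia replicate 1 lay above hypoxia replicates 2 and 3, so the groups overlapped. Within pairs of the same replicate number, hypoxia was higher in 3 of 3, by 0.13, 0.40 and 0.27 on the log2 scale. The log2 fold change was 0.25 (95% interval -0.20 to 0.69, SE 0.20, edgeR adjusted p = 0.43), compared with 0.27 (SE 0.06, edgeR adjusted p = 0.0036) with the replicate block. It was 0.52 without normoxia replicate 1 (edgeR adjusted p = 0.025) and 0.34 without both replicate 1 libraries (0.010), and it fell to 0.07 without hypoxia replicate 1 (0.87). Exons of an antisense transcript model overlap Cdkn1a, but that model had at most 5 counts in a library.

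Ccng1 encodes cyclin G1, which with a phosphatase acts back on MDM2. It was measured at 312, 287 and 310 CPM in hypoxia and at 226, 189 and 207 CPM in normoxia. All 3 hypoxia libraries lay above all 3 normoxia libraries. The gene rose 1.46-fold, from 207 ± 18.4 to 303 ± 13.7 CPM (log2 change of 0.55 ± 0.09 SE, edgeR adjusted p = 0.0019), the largest absolute increase in CPM among the 10.

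Bax and Bbc3 act at the mitochondrion. Bax encodes a BCL2 family protein that forms pores in the outer membrane, and its libraries gave 97.8, 95.4 and 90.0 CPM in hypoxia and 70.9, 66.4 and 76.9 CPM in normoxia. The groups were separate, and Bax rose 1.32-fold from 71.4 ± 5.27 to 94.4 ± 3.99 CPM (log2 change of 0.40 ± 0.08 SE, edgeR adjusted p = 0.0052). Another gene model, Gm45808, shares exons with Bax on the same strand and had 18 to 44 counts per library, against 3666 to 5582 for Bax. Bbc3, which encodes the BH3-only protein PUMA that releases BAX from its inhibitors, was at 21.02, 20.5 and 18.5 CPM in hypoxia and at 21.97, 19.0 and 17.0 CPM in normoxia. These ranges overlapped almost entirely, and the log2 fold change was 0.05 (95% interval -0.18 to 0.29, edgeR adjusted p = 0.79). The interval corresponds to a change between 0.880-fold and 1.22-fold, so a rise of the size seen in Bax lies outside it.

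Trp53inp1 encodes a stress protein that assists p53 and takes part in autophagy. Its levels were 107, 110 and 93.9 CPM in hypoxia against 56.0, 49.2 and 38.3 CPM in normoxia. Even the lowest hypoxia library was well above the highest normoxia library. The gene rose 2.17-fold, from 47.8 ± 8.90 to 104 ± 8.62 CPM (log2 change of 1.12 ± 0.13 SE, edgeR adjusted p = 0.00034).

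Eda2r and Phlda3 encode regulators at the plasma membrane. Eda2r, a receptor of the TNF receptor family that binds ectodysplasin A2, was counted 33, 36 and 39 times in the hypoxia libraries and 2 times in each normoxia library, or 0.578 to 0.694 CPM against 0.0362 to 0.0381 CPM. The mRNA was scarce in both groups and near the limit of counting in normoxia. The ratio of summed counts, 108 against 6, was 17.1 after scaling, with an exact 95% interval of 7.61 to 47.6 that covers counting error only (edgeR adjusted p = 8.4e-05). Phlda3 encodes a protein with a lipid-binding domain that competes with the kinase AKT for the membrane. Phlda3 stood at 18.5, 17.4 and 16.4 CPM in hypoxia and at 4.13, 4.33 and 5.21 CPM in normoxia, with no overlap. It rose 3.83-fold, from 4.56 ± 0.575 to 17.4 ± 1.06 CPM (log2 change of 1.94 ± 0.11 SE, edgeR adjusted p = 1.1e-05). By size of log2 fold change, Phlda3 had rank 160 of the 15591 tested genes. Eda2r had rank 9, but it passed the filter through hypoxia alone and so had to differ. Its rank and adjusted p are therefore no separate support.

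Of the last 2 members, Zmat3 encodes a zinc-finger protein that binds RNA and Sesn1 a sestrin, which restrains the growth kinase complex mTORC1. Zmat3 gave 26.1, 25.4 and 26.3 CPM in hypoxia and 14.3, 15.2 and 16.9 CPM in normoxia. The hypoxia libraries lay within 1 CPM of each other and above all normoxia libraries, and Zmat3 rose 1.68-fold from 15.5 ± 1.30 to 26.0 ± 0.466 CPM (log2 change of 0.75 ± 0.08 SE, edgeR adjusted p = 0.00029). Sesn1 was at 71.2, 81.7 and 74.4 CPM in hypoxia and at 74.5, 73.1 and 70.0 CPM in normoxia. Hypoxia was higher in 2 of 3 pairs, the groups overlapped, and the log2 fold change was 0.06 (95% interval -0.10 to 0.23, edgeR adjusted p = 0.61).

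**Figure D2:**
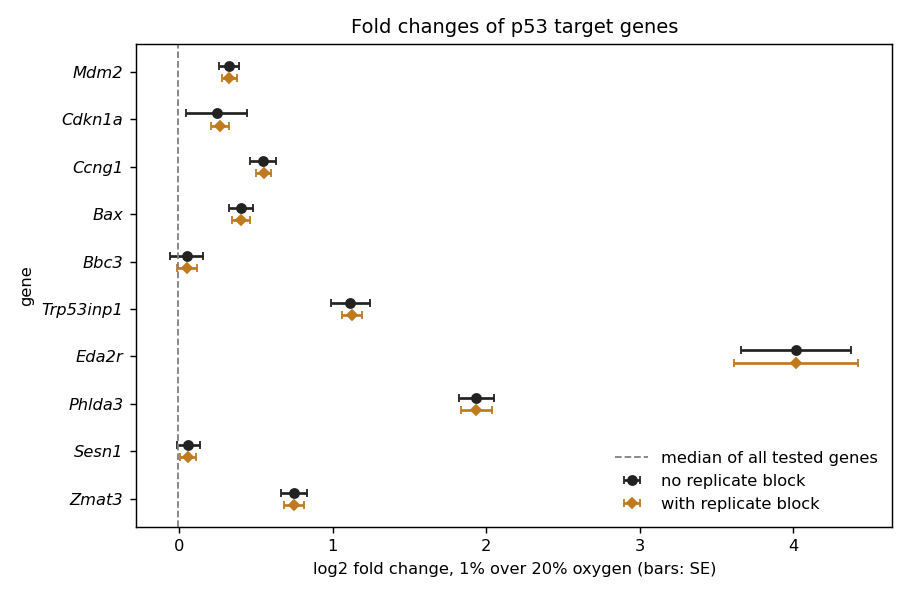
Log2 fold change (1% over 20% oxygen, horizontal axis) of the 10 genes with its SE, without the replicate block (circles) and with it (diamonds); the dashed line is the median of all tested genes. Phlda3 (1.94), Trp53inp1 (1.12) and Eda2r lie furthest right, Bbc3 (0.05) and Sesn1 (0.06) lie at the line, and the error of Cdkn1a shrinks from 0.20 to 0.06 with the block.

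The members did not move by one common factor, since the 95% interval of the fold was 3.22 to 4.55 for Phlda3 and 1.13 to 1.39 for Mdm2. On a per-length scale, CPM per kilobase of the longest coding transcript of each gene, the order in normoxia was Bax (82.3 ± 6.08), Cdkn1a (81.7 ± 24.2), Ccng1 (59.0 ± 5.25), Mdm2 (29.7 ± 0.700), Sesn1 (19.0 ± 0.611), Bbc3 (10.6 ± 1.39), Trp53inp1 (8.85 ± 1.65), Phlda3 (3.18 ± 0.4004), Zmat3 (1.98 ± 0.167) and Eda2r (0.00778 ± 0.000209 CPM per kilobase). Of neighbours in that order, Bax and Cdkn1a differed by less than their spread, and the ranges of Bbc3 and Trp53inp1 overlapped. Hypoxia kept the first 5 places, while Trp53inp1 (19.2 ± 1.59) and Phlda3 (12.2 ± 0.738) stood above Bbc3 (11.02 ± 0.730). In hypoxia the ranges of Bax and Cdkn1a, Cdkn1a and Ccng1, Sesn1 and Trp53inp1, and Phlda3 and Bbc3 overlapped. Zmat3 and Eda2r were lowest at both oxygen levels.

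The replicate 1 libraries stood apart in some members more than in others. In replicate 1 Cdkn1a was 1.40 times the mean of replicates 2 and 3 in hypoxia and 1.62 times in normoxia. For the other 9 genes that ratio lay between 0.878 and 1.10 in hypoxia and between 0.866 and 1.28 in normoxia. The coefficient of variation of Cdkn1a was 20.7% in hypoxia and 29.6% in normoxia, the largest of the 10 in each group, against 1.80% to 9.22% and 2.36% to 18.6% for the others. The 7 members called higher without the block were also called without both replicate 1 libraries.

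**Figure D3:**
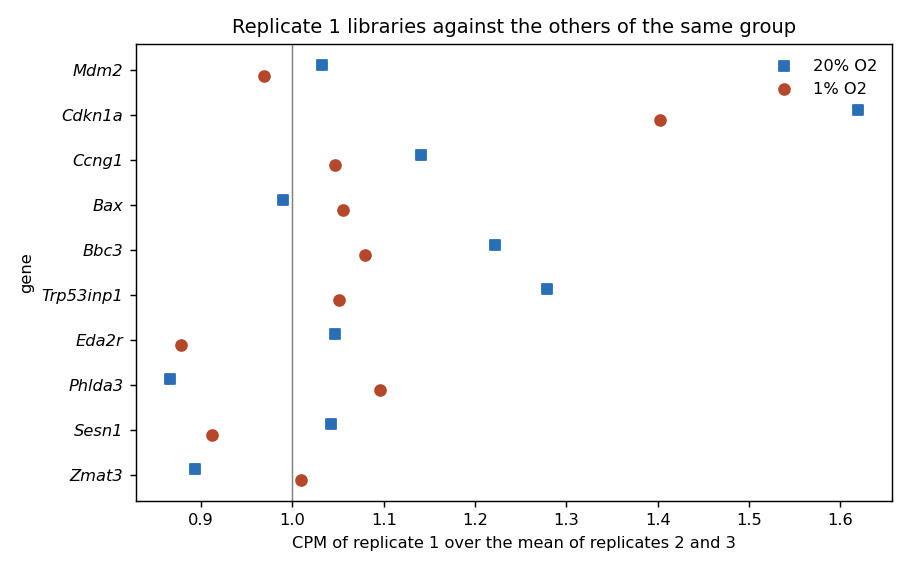
CPM of the replicate 1 library divided by the mean of replicates 2 and 3 of the same group (horizontal axis, ratio) for the 10 genes at 20% oxygen (squares) and 1% oxygen (circles). Cdkn1a lies far right at both oxygen levels (1.62 and 1.40), and the other genes lie between 0.866 and 1.28.

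Trp53, the p53 gene itself, was not higher in hypoxia. It stood at 177, 156 and 157 CPM in hypoxia and at 199.5, 178 and 188 CPM in normoxia, which is 164 ± 11.9 against 188 ± 10.8 CPM. Each hypoxia library was below each normoxia library, by a margin of less than 1 CPM between the nearest, and the log2 fold change was -0.20 (SE 0.08, edgeR adjusted p = 0.11, with the block 0.0059). Mdm4, which encodes a relative of MDM2 that blocks p53 activity, stood at 200.3 ± 20.7 CPM in hypoxia against 171 ± 13.7 in normoxia (log2 change of 0.23 ± 0.10 SE, edgeR adjusted p = 0.13, with the block 0.0052). Of 25 listed regulators, kinases and cofactors of p53, 22 were tested, of which 2 were higher and 1 lower (3 and 8 with the replicate block), with a median log2 fold change of -0.08. Over all tested genes the shares higher and lower were 11.2% and 9.72%, and 19.2% and 20% with the replicate block. Hipk2, a kinase that phosphorylates p53, rose from 11.03 ± 1.04 to 16.6 ± 1.30 CPM (log2 change of 0.59 ± 0.10 SE, edgeR adjusted p = 0.0030). Chek2, the gene of the damage kinase CHK2, rose from 16.3 ± 0.458 to 19.5 ± 0.815 CPM, and Trp53bp2, whose product binds p53 and steers it to apoptotic genes, fell from 24.2 ± 1.16 to 20.4 ± 0.853 CPM (adjusted p of 0.040 and 0.048 in edgeR). Chek2 lost its call with any single library left out (edgeR adjusted p = 0.068 to 0.16). Trp53bp2 lost it with each left out except normoxia replicate 1 (0.0775 to 0.17), and with scaling by library size (0.21). Without both replicate 1 libraries neither was called (0.080 for Chek2 and 0.064 for Trp53bp2, edgeR adjusted p). Trp63, Trp73 and Twist1 had at most 5 counts in a library and were not tested.

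A second list held 40 further p53 targets, of which 38 were tested. On that list 11 were higher and 3 lower, with a median log2 fold change of 0.13 (15 and 5 with the replicate block, 15 and 3 without both replicate 1 libraries). Of all tested genes 11.2% were called higher and 9.72% lower, and 19.2% and 20% with the replicate block. Without both replicate 1 libraries, 1811 of the 15814 genes tested were higher and 1481 lower. Ak1, which encodes an adenylate kinase, went from 0.123 ± 0.0365 to 1.38 ± 0.106 CPM, and Cpt1c, a carnitine palmitoyltransferase gene, from 0.106 ± 0.0780 to 0.432 ± 0.0861 CPM. Both genes, counted among the 11, passed the filter through hypoxia alone and so had to differ. The ratios of summed counts were 11.3 (237 against 20 counts, exact 95% interval 7.13 to 18.8) and 4.14 (74 against 17, 2.42 to 7.47), for counting error only. Cpt1c did not pass without normoxia replicate 2 (edgeR adjusted p = 0.056). Tsc22d1, the gene of a leucine-zipper transcription regulator, rose from 15.7 ± 1.34 to 49.4 ± 4.56 CPM (log2 change of 1.66 ± 0.10 SE, edgeR adjusted p = 1.1e-05). Plk2, a polo-like kinase gene, rose from 1.88 ± 0.369 to 5.82 ± 0.378 CPM (log2 change of 1.63 ± 0.16 SE, edgeR adjusted p = 0.00016). Pmaip1, which encodes the BH3-only protein NOXA, rose 2.61-fold from 7.27 ± 1.14 to 19.0 ± 2.46 CPM (edgeR adjusted p = 0.00014). The other 6 that rose, named after their values were seen, were Perp, Ephx1, Psrc1, Aen, Tnfrsf10b and Polk, of which Polk lost its call on leaving out replicate 2 or 3 of either group (edgeR adjusted p = 0.090 to 0.12).

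The 3 further targets that fell were Pml, Ddit4 and the polo-like kinase gene Plk3. Pml, an interferon-inducible gene of nuclear bodies, fell from 96.1 ± 11.96 to 53.7 ± 6.36 CPM (log2 change of -0.84 ± 0.11 SE, edgeR adjusted p = 0.00075). Ddit4, an inhibitor of mTORC1 that hypoxia and amino acid stress can also induce, fell from 119.5 ± 17.0 to 78.8 ± 2.00 CPM (log2 change of -0.60 ± 0.10 SE, edgeR adjusted p = 0.0024). Plk3 fell from 13.6 ± 0.997 to 10.5 ± 0.852 CPM (edgeR adjusted p = 0.025). Its call was lost without hypoxia replicates 1 or 3 or normoxia replicate 2 (0.064 to 0.11), with scaling by library size (0.091) and, narrowly, without both replicate 1 libraries.

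**Figure D4:**
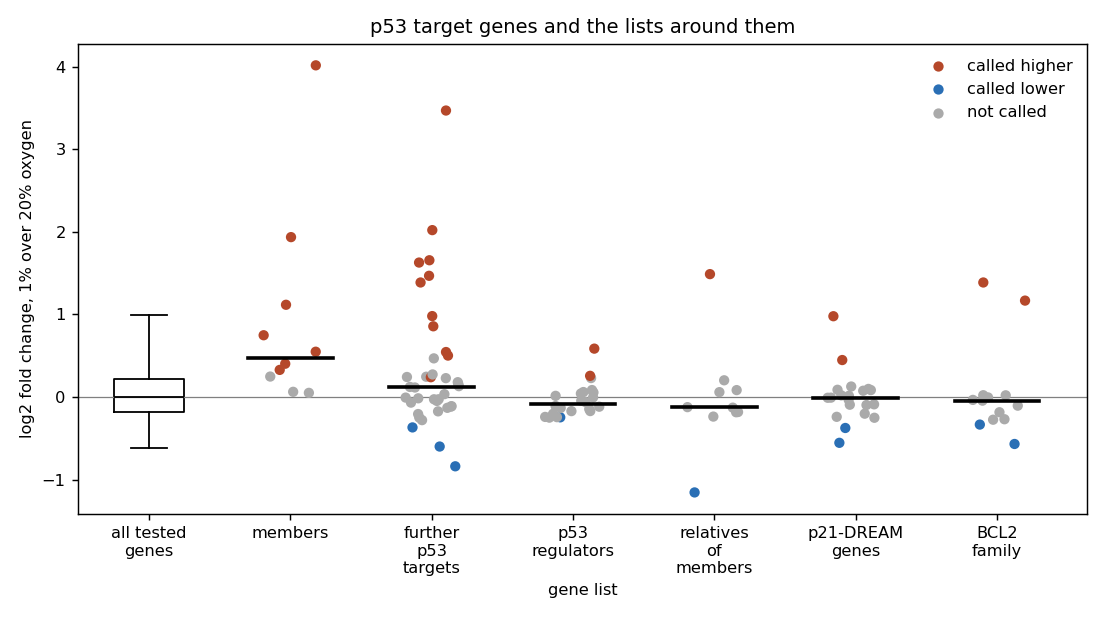
Log2 fold change (1% over 20% oxygen) of the tested genes of each list, coloured by call (edgeR adjusted p under 0.05), with the list median as a black line; the box shows the quartiles and the whiskers the 5th and 95th percentiles of all 15591 tested genes. The members' median is 0.48 and that of the further p53 targets 0.13, and the medians of the other 4 lists lie between -0.13 and -0.0087.

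Close relatives of the members that are not standard p53 targets were compared in the same fit, together with the sestrin gene Sesn2. Of 14 listed relatives 10 were tested, with 1 higher and 1 lower (2 and 2 with the replicate block) and a median of -0.13. The shares of all tested genes were 11.2% higher and 9.72% lower (19.2% and 20% with the replicate block). Phlda1, a paralog of Phlda3, fell from 13.1 ± 2.53 to 5.89 ± 0.568 CPM (log2 change of -1.16 ± 0.15 SE, edgeR adjusted p = 0.00055), opposite in sign to Phlda3. Cdkn1c, which encodes the p21 relative p57, was scarce, with 42 summed counts in hypoxia and 14 in normoxia (edgeR adjusted p = 0.023), and passed the filter through hypoxia alone, so it had to differ. It did not pass without any one of the libraries other than normoxia replicate 3 (0.058 to 0.093), with the DESeq2 Wald test (adjusted p = 0.10) or without both replicate 1 libraries (0.071). Cdkn1b, the gene of the inhibitor p27, had a log2 fold change of 0.08 (95% interval -0.12 to 0.29, edgeR adjusted p = 0.57), and Ccng2, the gene of cyclin G2, one of 0.06 (-0.24 to 0.36, edgeR adjusted p = 0.81). Trp53inp2 was at 13.1 ± 3.87 CPM in hypoxia against 14.3 ± 3.49 in normoxia (edgeR adjusted p = 0.74). Sesn2 had a log2 fold change of -0.03 (edgeR adjusted p = 0.88) and Sesn3 one of 0.20 (edgeR adjusted p = 0.082, with the block 0.0051), while in Sesn3 the groups did not overlap. The signs of Cdkn1b, Ccng2, Trp53inp2 and Sesn2 changed in some settings.

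p53 lowers many cell cycle genes indirectly, through p21 and the DREAM repressor complex. Of 20 such genes, all tested, 2 were higher and 2 lower (2 and 5 with the replicate block), with a median log2 fold change of -0.0087. Of all tested genes, 11.2% were called higher and 9.72% lower, so the counts without the block are near that share. With the block the shares were 19.2% and 20%. The other 16, further mitotic and S-phase genes among them, were not called. The 2 that fell are mitotic genes: Cdc25c, a phosphatase gene, went from 28.0 ± 2.88 to 19.1 ± 1.52 CPM, and Cdc20, an activator of the anaphase-promoting complex, from 112 ± 15.3 to 86.5 ± 6.07 CPM (adjusted p of 0.0038 and 0.031 in edgeR). Cdc20 lost its call without hypoxia replicate 2, hypoxia replicate 3, normoxia replicate 1 or normoxia replicate 2 (0.057 to 0.10) and with scaling by library size (0.075). The 2 that rose drive entry into S phase. Ccne2, the gene of cyclin E2, rose from 31.6 ± 6.95 to 62.2 ± 5.11 CPM (log2 change of 0.98 ± 0.14 SE, edgeR adjusted p = 0.0011), and E2f1 from 48.8 ± 5.29 to 66.5 ± 2.56 CPM (edgeR adjusted p = 0.0055).

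Bax and Bbc3 belong to the BCL2 family. Of 15 other listed family members, Pmaip1 included, 13 were tested, with 2 higher and 2 lower (2 and 4 with the replicate block) and a median of -0.04. Among all tested genes 11.2% were higher and 9.72% lower (19.2% and 20% with the replicate block). Besides Pmaip1, the BH3-only gene Bik rose from 1.30 ± 0.0670 to 2.93 ± 0.489 CPM (edgeR adjusted p = 0.0016). Bid, a BH3-only gene that links death receptors to the mitochondrion, fell from 51.4 ± 4.34 to 40.8 ± 3.13 CPM, and Bcl2a1d, a survival gene with near-identical copies that may share its reads, from 1163 to 1229 counts per library to 696 to 1073 (edgeR adjusted p = 0.023 and 0.020). Bid lost its call without hypoxia replicates 1 or 2 or normoxia replicate 3 (0.068 to 0.12) and with scaling by library size (0.071), and Bcl2a1d without hypoxia replicates 1 or 2 or normoxia replicate 2 (0.0536 to 0.0905). Among the named genes outside the 10, exons of Bid, Ccne2, Cdc20, Cdc25c, Cdkn1c, Cpt1c, Phlda1, Plk3 and Pml overlap a gene on the other strand, and whether the counting used strand is not given in the sources used here.

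All 10 NK cell markers were expressed and tested, and 0 were called higher and 1 lower (Eomes, named after its values were seen), compared with 2 higher and 5 lower with the replicate block. Gzmb, which encodes granzyme B, had 11744 ± 1432 CPM in hypoxia against 11992 ± 697 in normoxia, a value whose sign changed in some settings (edgeR adjusted p = 0.87). Il2rb, an interleukin-2 receptor chain, stood at 2730 ± 313 against 3368 ± 436 CPM (edgeR adjusted p = 0.092, with the block 0.0010, without hypoxia replicate 1 0.043). Some markers of other cell types moved with oxygen as well, beside 11.2% of all tested genes called higher and 9.72% lower. With the replicate block these shares were 19.2% and 20%. Of 10 T cell markers, all tested, 3 were higher and 0 lower (4 and 1 with the replicate block), and the list, led by Trbc1 and Cd3g, summed to 440 to 513 CPM in hypoxia and 444 to 470.5 in normoxia. Of the 8 macrophage and monocyte markers 4 were tested, with 2 higher and 1 lower, and 1 of the 2, Lyz2, passed the filter through hypoxia alone and so had to differ. Their sum, mostly Cd68 and then Cd14, was 50.8 to 83.6 CPM against 15.5 to 29.2, with C1qa at 0 and Adgre1 at no more than 1 count in every library. Of the 8 basophil and mast cell markers 4 were tested, with 3 higher and 0 lower, at 383 to 437 CPM against 236 to 259, mostly Kit and Mcpt8, with at most 1 count of Fcer1a or Ms4a2. The 8 dendritic cell markers, mostly Itgax and Bst2, had 4 tested, 2 higher and 2 lower, and summed to 339 to 376 CPM against 219 to 237, with Clec9a and Cd209a at 0. Of the 8 neutrophil markers, led by Ngp and S100a9, the 3 tested passed the filter through hypoxia alone, so their higher calls carry no information. With Retnlg at 0 the list summed to 1.35 to 2.68 CPM against 0.127 to 0.324. B cell markers, almost all of it Ighm and then Cd79b, had 2 of 8 tested, 1 higher and 0 lower (2 and 0 with the replicate block), at 73.0 to 78.0 CPM against 54.9 to 70.3, with at most 1 count of Ms4a1. Erythroid markers, led by Epor and Klf1, had 1 of 8 tested, Epor, which was lower, at a summed 0.872 to 1.05 CPM against 1.15 to 1.41. Epor lost its call on leaving out hypoxia replicate 2 or 3 or normoxia replicate 1 or 2 (edgeR adjusted p = 0.0565 to 0.0932). In the macrophage, basophil, dendritic, neutrophil and erythroid lists the replicate block gave the same counts. The part of such cells in the values of the p53 targets was not tested.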

How the data were processed

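Per the labels' protocols, the 6 libraries were strand-specific mRNA libraries read on a DNBSEQ instrument. The submitters' processing notes name Trim Galore 0.6.4, kallisto 0.4.6, edgeR 3.17 and the build GRCm39, without order or settings. The authors deposited an estimated count per Ensembl gene and library (not normalized, 69.45% whole numbers within 1e-06) and a log2 CPM. The deposited log2 CPM equalled what edgeR computes from the counts with a prior count of 2.

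Symbols for 52029 of 56953 IDs, and transcript lengths and exon overlaps, came from GENCODE M21 (GRCm38), promoters from RefSeq. Estimated counts were rounded, filtered (filterByExpr, minimum count 10, minimum total 15), scaled with TMM and tested in edgeR 4.0.16 (R 4.3.3, quasi-likelihood test, no covariates, threshold 0.05). The SE was derived from the F statistic and the log2 fold change. Alternatives used limma 3.58.1 and DESeq2 1.42.0. The fit without the block was tested on data simulated without a replicate effect, so that test does not cover the replicate effect seen here.

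The members, lists and rules were chosen with earlier results of these data known. The rule for named genes took the 10 members, Trp53, Mdm4, 5 relatives, up to 4 rises and 4 falls called per list, and the 2 most abundant markers per cell type. Alternatives for the other lists and their genes were chosen after seeing the data. Replicates differed by more than sampling noise, so no library was counted as a duplicate. Deviations of same-numbered libraries from group means correlated at 0.47, 0.33 and 0.30, so by a criterion of 0.1 the replicate numbers, which come from the labels, were taken to pair the samples. Libraries with different numbers gave -0.35 to 0.118. The highest of these, hypoxia replicate 2 with normoxia replicate 3, also lay above 0.1, so the criterion did not set all same-numbered pairs apart from the rest. The common coefficient of variation between replicates (edgeR) was 10.9% unblocked and 5.64% blocked.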

Additional observations from a re-analysis of the deposited data

How the results depend on the processing

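Of the 10 p53 targets, 7 were called higher in every alternative in which they were tested, with unchanged sign, and the count higher ran from 6 (the stricter filter, minimum count 50, which leaves out Eda2r) to 8, with 0 lower in all 14. Leaving out single libraries gave 7 to 8. Cdkn1a was called in 3 of 14 alternatives. Bbc3 was called in none, and its log2 fold change was -0.037 without normoxia replicate 3 (-0.037 to 0.15 over single libraries left out); Sesn1 was called in none. The replicate block gave 2988 higher and 3120 lower genes, changed the call of 1 member (Cdkn1a), and in the other lists together moved the lower calls from 9 to 23 and among the further p53 targets from 3 to 5. Scaling by library size and limma-trend on the deposited log2 CPM gave 998 and 987 lower genes and 5 lower in the lists together in both. Single libraries left out gave 1146 to 1980 higher and 804 to 1636 lower genes (lowest without normoxia replicate 2 and without hypoxia replicate 2), 13 to 17 higher and 5 to 12 lower in the lists together (5 without hypoxia replicates 1 or 2 or normoxia replicate 2), and 9 to 13 and 2 to 4 among the further targets. Signs of genes that were not called also changed. With single libraries left out, log2 fold changes ran from -0.0012 to 0.17 for Cdkn1b, -0.063 to 0.23 for Ccng2, -0.39 to 0.063 for Trp53inp2, -0.13 to 0.057 for Sesn2 and -0.13 to 0.026 for Gzmb. With library size and limma-trend Sesn2 gave 0.057 and 0.0535 and Gzmb 0.051 and 0.047, and without both replicate 1 libraries Gzmb gave 0.027. The cause was not tested.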

Other observations

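A pair of further p53 targets, chosen after their values were seen, shared the pattern of Cdkn1a across replicates. Ei24, which encodes a protein of the endoplasmic reticulum with a part in autophagy, was 1.39 times higher in replicate 1 than the mean of replicates 2 and 3 in hypoxia and 1.40 times in normoxia. Perp, which encodes a membrane protein of cell junctions and apoptosis, gave 1.54 and 1.56. The pattern was not particular to p53 targets. Among the cell type markers, Nkg7 gave 1.45 in hypoxia and 1.46 in normoxia and Cd68 gave 1.53 and 1.79, while Kit gave 0.84 and 0.90. Perp rose from 4.82 ± 1.32 to 13.3 ± 3.51 CPM (log2 change of 1.47 ± 0.22 SE, edgeR adjusted p = 0.0014). Ei24 stood at 90.7 ± 18.4 CPM in hypoxia against 65.6 ± 13.5 in normoxia (edgeR adjusted p = 0.069, with the block 1.6e-05), and its groups overlapped.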
